A study of Mus musculus with 6 samples.

Results

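The methionine cycle and the transsulfuration pathway were followed through the transcripts of 10 enzymes, Mat2a, Mat2b, Gnmt, Ahcy, Mtr, Bhmt2, Dmgdh, Sardh, Cbs and Cth, in mouse kidney. The genes were taken by name from a list drawn up with earlier results of these data known, and all 10 were found among the 24346 gene symbols of each library. Messenger RNA of 6 kidney samples had been sequenced, 3 from mice given D-serine (0.1% in the drinking water) and 3 from mice given vehicle (water without it). Both groups ate a serine-free diet for 1 week, both then underwent unilateral nephrectomy, the removal of 1 kidney, and tissue was taken 2 days later. D-serine is the mirror image of the common amino acid L-serine, and it is degraded in kidney by D-amino acid oxidase. The sources used here give no strain, genotype, sex or age, and sham-operated mice were not analysed here. No label ties a sample to a single mouse, so the p-values speak of the spread among these samples, which may be technical.

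In the methionine cycle, methionine and ATP are joined to S-adenosylmethionine, which donates its methyl group and leaves S-adenosylhomocysteine, and this is split into adenosine and homocysteine. Homocysteine then either takes up a new methyl group and becomes methionine again, or enters transsulfuration, where it is joined to L-serine and ends as cysteine. Dimethylglycine and sarcosine connect the cycle to folate, since the mitochondrial enzymes that strip methyl groups from them pass one-carbon units to folate. In kidney these reactions take place to a large extent in the proximal tubule, which reabsorbs amino acids.

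Levels are in FPKM, which scales fragment counts by transcript length and by the depth of the library, so genes can be set beside each other. Steps between the lowest values put the depth at roughly 7330000 to 8770000 fragments, with D-serine replicate 2 the shallowest. At that depth the least covered enzymes, Gnmt and Mtr, rested on about 70 to 290 and 140 to 270 fragments per library if all came from the longest annotated transcript, and counting error weighs most on these. Proximal tubule genes such as Slc34a1, the phosphate transporter of the early tubule (2147 FPKM with D-serine and 2395 FPKM with vehicle), were abundant. Kap, an androgen-regulated tubule gene, held 11.6 to 15.8% of all FPKM in each library, a share large enough to enter the scale of the other genes.

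The mean of every enzyme transcript was lower in the D-serine kidneys, at between 0.458 and 0.980 times the vehicle mean, and for 7 of the 10 the D-serine libraries lay below all vehicle libraries. Non-overlap in that direction was found for 19.4% of all genes tested, and in the other direction for 0 of the 10 enzymes and 16.5% of all genes. The widest gaps were at Gnmt, the glycine methyltransferase that disposes of surplus S-adenosylmethionine, at Cbs, which opens transsulfuration, and at Dmgdh, which demethylates dimethylglycine. The narrowest was at Mat2b, the regulatory subunit of S-adenosylmethionine synthesis. None of the 10 passed the test over all genes: limma, fitted on log2(FPKM + 1) of the 11737 genes averaging 1 FPKM or more, gave Benjamini-Hochberg adjusted p-values from 0.057 to 0.85 for them, against a threshold of 0.05. That threshold called 8 genes lower with D-serine and 1 higher over the whole table, 0.0682% and 0.00852% of the genes tested. At an unadjusted p under 0.05, 8 enzymes lay lower with D-serine and 0 higher, where 14.6% of all genes tested were lower and 13.1% higher by that rule. At an adjusted p under 0.1, 4 enzymes (Cbs, Dmgdh, Gnmt and Ahcy) were lower with D-serine, against 5.84% of all genes tested. A log2 difference below 0 was found for 10 of the 10 enzymes and for 51.1% of all genes tested. The median log2 difference, D-serine minus vehicle, was -0.46 over the 10 enzymes and -0.0078 over all genes tested.

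**Figure D1:**
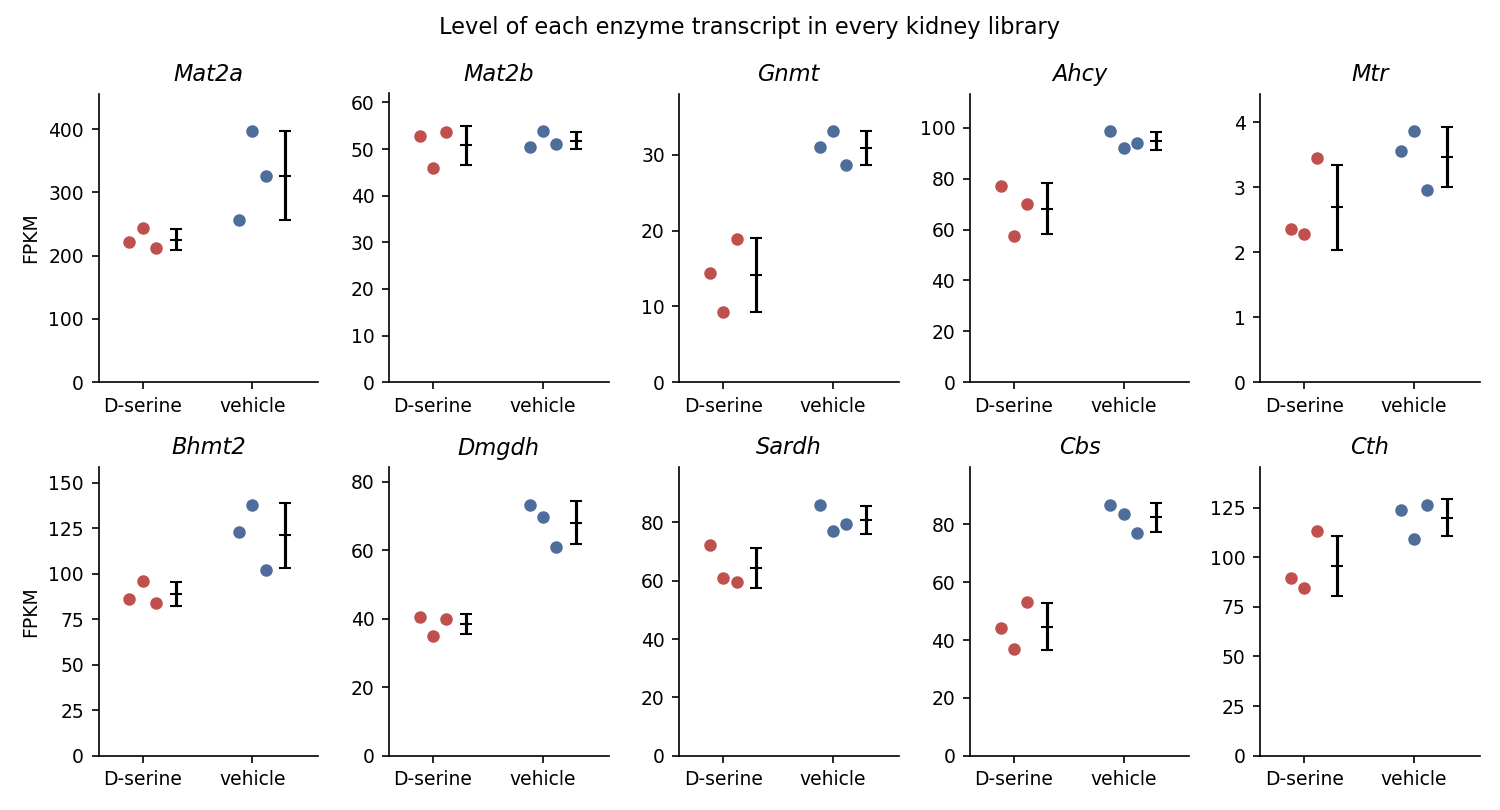
FPKM of each of the 10 enzyme transcripts in the 3 D-serine (red) and 3 vehicle (blue) libraries, each axis starting at 0, with points for libraries and bars for the mean ± SD (n = 3 each). The groups are apart for Mat2a, Gnmt, Ahcy, Bhmt2, Dmgdh, Sardh and Cbs and overlap for Mat2b, Mtr and Cth.

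Mat2a and Mat2b encode the catalytic and the regulatory subunit of the methionine adenosyltransferase found outside the liver. Mat2a was the most abundant of the 10 transcripts in either group. It stood at 221, 243 and 212 FPKM in D-serine replicates 1 to 3, against 256, 397 and 327 FPKM in vehicle replicates 1 to 3. The groups did not overlap, but vehicle replicate 1 lay close above the D-serine libraries and the vehicle libraries spread widely. The log2 difference was -0.51 ± 0.16 (SE, limma adjusted p = 0.11). Mat2b stood at 52.7, 45.9 and 53.7 FPKM with D-serine, against 50.5, 53.8 and 51.1 FPKM with vehicle. These values overlap throughout, and the log2 difference was -0.03 ± 0.097 (SE, limma adjusted p = 0.85). Its sign turned under 3 other settings. The ratio of Mat2a to Mat2b, from catalytic to regulatory subunit, was 4.20, 5.30 and 3.95 with D-serine and 5.08, 7.37 and 6.39 with vehicle. The ratios overlapped, as D-serine replicate 2 exceeded vehicle replicate 1 (exact permutation test, two-sided p = 0.2, where 3 against 3 cannot give less than 0.1). Mat1a, the liver form of the catalytic subunit, was at most 0.0772 FPKM in a D-serine library and 0.0358 FPKM in a vehicle library, and was listed at 0 in 1 library of each group.

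Reads at the Mat2a locus may come from more than 1 gene. Particl, annotated on the opposite strand at Mat2a (chromosome 6, 72432799 to 72439558, minus strand), shares 508 exon bases with it. The libraries were stranded per the labels' protocols, but the sources used here do not say whether fragments were assigned by strand. Whether reads of this overlap were told apart is therefore not known. Particl itself was at 6.19, 6.16 and 7.93 FPKM with D-serine, against 11.9, 14.6 and 11.6 FPKM with vehicle, without overlap between the groups. Its log2 difference of -0.82 did not pass either (limma adjusted p = 0.058). The pseudogene Gm9523 matches 1164 bases of Mat2a at 95.6% identity and could take some of its reads.

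Gnmt and Ahcy carry out a methyl transfer and the step that follows it. Gnmt (chromosome 17, 46725664 to 46729168, minus strand) moves the methyl group of S-adenosylmethionine to glycine, which yields sarcosine. It was at 14.4, 9.22 and 18.9 FPKM in the D-serine kidneys, against 31.1, 33.1 and 28.6 FPKM in the vehicle kidneys. The lowest vehicle library lay far above the highest D-serine library, while the D-serine libraries differed among themselves by more than the vehicle libraries did. The mean with D-serine was 0.458 times that with vehicle, and the log2 difference, the lowest of the 10, was -1.12 ± 0.23 (SE, limma adjusted p = 0.066). Ahcy, which splits S-adenosylhomocysteine, was at 77.2, 57.4 and 70.0 FPKM with D-serine and at 98.7, 92.0 and 93.8 FPKM with vehicle. The groups did not overlap, and the log2 difference was -0.48 ± 0.12 (SE, limma adjusted p = 0.082).

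The ratio of Gnmt to Ahcy, a maker of S-adenosylhomocysteine over its remover, was 0.186, 0.161 and 0.271 with D-serine, against 0.315, 0.360 and 0.305 with vehicle. Every D-serine ratio was below every vehicle ratio, which gives the smallest two-sided p that an exact permutation test of 3 against 3 allows, 0.1. Ahcy has near-identical copies in the genome: Gm4737 matches 2083 bases at 99.7% identity and Gm9826 matches 1299 bases at 99.2%. Gm4737 was listed at 0 in 4 libraries and at 0.0591 and 0.0625 FPKM in the other vehicle libraries, so few reads had been given to it, although the split between such copies is uncertain. The related genes Ahcyl1 and Ahcyl2, whose proteins resemble the Ahcy enzyme, were abundant too. Ahcyl1 averaged 81.5 ± 4.77 FPKM with D-serine and 98.1 ± 6.69 FPKM with vehicle (SD, n = 3 each, limma adjusted p = 0.14). Ahcyl2 averaged 48.1 ± 4.07 FPKM with D-serine and 65.7 ± 4.48 FPKM with vehicle (SD, n = 3 each, limma adjusted p = 0.074). Neither overlapped between groups, and neither passed.

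Mtr and Bhmt2 return homocysteine to methionine by separate routes. Mtr, the methionine synthase, takes the methyl group from methylfolate and needs cobalamin. It was the least abundant of the 10, at 2.36, 2.28 and 3.45 FPKM with D-serine and at 3.57, 3.87 and 2.96 FPKM with vehicle. D-serine replicate 3 lay within the vehicle range, so the groups overlapped, and the log2 difference was -0.28 ± 0.16 (SE, limma adjusted p = 0.28). Bhmt2, which uses S-methylmethionine as its methyl donor, was at 86.4, 96.3 and 84.2 FPKM with D-serine, against 123, 138 and 102 FPKM with vehicle. These groups did not overlap, and their log2 difference was -0.43 ± 0.13 (SE, limma adjusted p = 0.10). Its neighbour and paralog Bhmt, the betaine enzyme that is abundant in liver, was low in these kidneys at 1.27 ± 0.271 FPKM with D-serine and 0.856 ± 0.277 FPKM with vehicle (SD, n = 3 each, limma adjusted p = 0.32). The ratio of Bhmt2 to Mtr was 36.7, 42.2 and 24.4 with D-serine and lay between 34.5 and 35.7 with vehicle. The D-serine ratios fell on both sides of the vehicle ratios (exact permutation test, two-sided p = 1).

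Dmgdh and Sardh are related mitochondrial flavoproteins that act in sequence, the first turning dimethylglycine into sarcosine and the second sarcosine into glycine. Dmgdh was at 40.4, 35.0 and 39.8 FPKM with D-serine, against 73.2, 69.8 and 61.0 FPKM with vehicle. Both groups were tight and far apart, and the mean with D-serine was 0.565 times that with vehicle. Its log2 difference of -0.81 ± 0.11 had the smallest unadjusted p of the 10, 0.00012, and an adjusted p of 0.057 in limma. Sardh was at 72.2, 61.0 and 59.6 FPKM with D-serine and at 86.1, 77.0 and 79.6 FPKM with vehicle. The highest D-serine library came near the lowest vehicle library without reaching it, and the log2 difference was -0.33 ± 0.11 (SE, limma adjusted p = 0.11).

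Dmgdh (chromosome 13, 93674433 to 93752833, plus strand) and Bhmt2 (chromosome 13, 93655720 to 93674302, minus strand) stand back to back. In RefSeq their starts are 134 bases apart and point away from each other, so that their 300-base promoter windows share 233 bases. By the same distance 5.88% of the genes in the RefSeq promoter table have such a divergent partner, and 3 of the enzymes do, Dmgdh, Bhmt2 and Ahcy. The shared stretch is shown because both genes had D-serine libraries below all vehicle libraries. It is given on the plus strand of GRCm38.p6, chr13:93674186-93674485, and the 135 capitals run from the Bhmt2 start to the Dmgdh start:
Dmgdh and Bhmt2: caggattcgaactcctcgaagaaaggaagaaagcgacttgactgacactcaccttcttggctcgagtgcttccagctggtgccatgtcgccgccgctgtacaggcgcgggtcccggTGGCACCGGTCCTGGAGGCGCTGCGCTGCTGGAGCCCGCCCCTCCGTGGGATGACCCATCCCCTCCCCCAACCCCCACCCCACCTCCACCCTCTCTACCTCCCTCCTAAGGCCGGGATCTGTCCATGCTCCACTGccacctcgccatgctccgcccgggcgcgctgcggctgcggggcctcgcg
The log2 difference of Dmgdh was nearly as low as that of Cbs, while that of Bhmt2 was closer to 0, and D-serine replicate 2 held the lowest Dmgdh value and the highest Bhmt2 value of its group. AW495222, annotated antisense to Dmgdh, shares 215 exon bases with it. Whether reads of this overlap were told apart depends on the strand setting, which is not given. AW495222 was at 4.32, 4.27 and 5.50 FPKM with D-serine, against 12.7, 8.82 and 11.2 FPKM with vehicle, again without overlap (limma adjusted p = 0.057). Of the genes to either side, Arsb, a lysosomal sulfatase, was at 37.9, 17.9 and 41.5 FPKM with D-serine and 54.8, 59.0 and 49.1 FPKM with vehicle. Its groups did not overlap either, and its log2 difference was -0.81 (limma adjusted p = 0.13), near that of Dmgdh. Jmy, an actin regulator, was at 4.70 ± 0.401 FPKM with D-serine and 5.34 ± 0.293 FPKM with vehicle (SD, n = 3 each), with overlapping groups. Bhmt, described above, lies beside Bhmt2 and had a log2 difference of 0.29, also with overlapping groups (limma adjusted p = 0.32). Sardh likewise has an antisense partner, Sardhos, which shares 188 exon bases with it and was not used here.

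Cbs and Cth form the transsulfuration pathway. Cbs (chromosome 17, 31608894 to 31637238, minus strand) joins homocysteine to L-serine. It was at 44.0, 37.0 and 53.0 FPKM in the D-serine kidneys, against 86.8, 83.6 and 77.0 FPKM in the vehicle kidneys. The lowest vehicle library stood well above the highest D-serine library. The mean with D-serine was 0.541 times that with vehicle, and the log2 difference was -0.88 ± 0.14 (SE, limma adjusted p = 0.057). Cth, which cleaves the resulting cystathionine to cysteine, was at 89.6, 84.3 and 113 FPKM with D-serine, against 124, 109 and 126 FPKM with vehicle. D-serine replicate 3 exceeded vehicle replicate 2, so the groups overlapped, and the log2 difference was -0.33 ± 0.13 (SE, limma adjusted p = 0.16). Whether the differences of Cbs and Cth differ from each other was not tested.

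The ratio of Cbs to Mtr sets the entry into transsulfuration against folate-dependent remethylation. It was 18.7, 16.2 and 15.3 with D-serine, against 24.4, 21.6 and 26.0 with vehicle, without overlap (exact permutation test, two-sided p = 0.1, the smallest that 3 against 3 allows). Adjusted over the 4 ratios computed, the p-values were 0.2 for Cbs to Mtr and for Gnmt to Ahcy, 0.27 for Mat2a to Mat2b and 1 for Bhmt2 to Mtr.

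**Figure D2:**
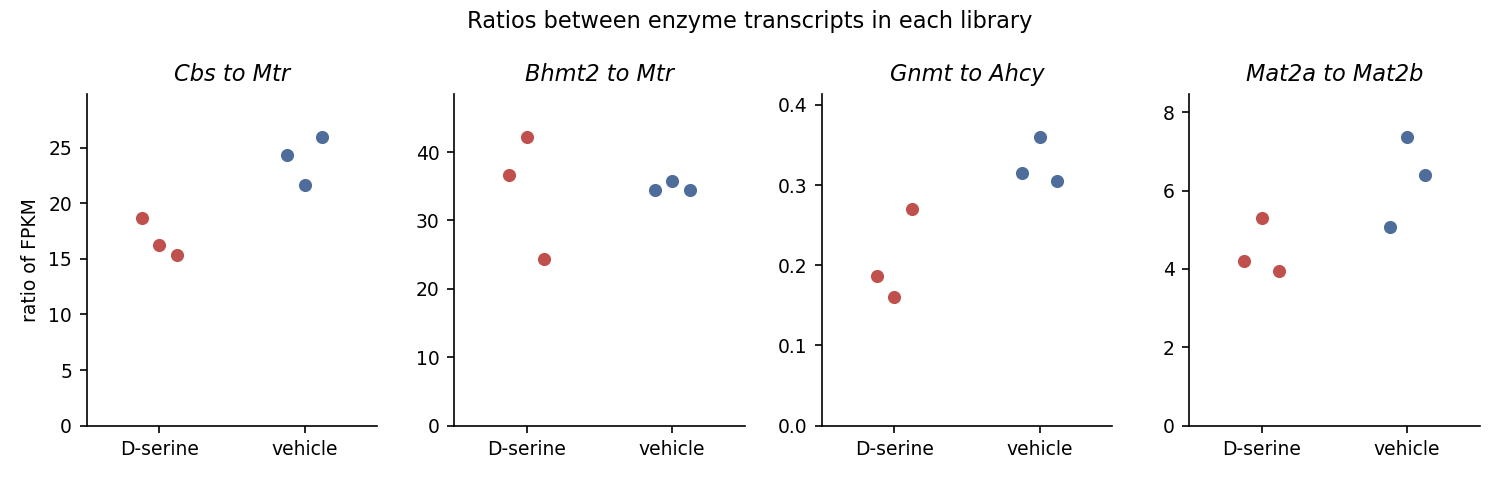
Ratio of the FPKM of 2 transcripts in each library, for 3 D-serine (red) and 3 vehicle (blue) libraries, each axis starting at 0. The groups are apart for Cbs to Mtr and Gnmt to Ahcy, and overlap for Bhmt2 to Mtr and Mat2a to Mat2b.

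The promoters of Cbs and Gnmt are shown because these genes had the lowest log2 differences of the 10. Both come from the RefSeq table of GRCm38.p6, run 5′ to 3′ on the gene's own strand and hold 250 bases before and 50 after the annotated start. Cbs lies at chr17:31637156-31637455 and Gnmt at chr17:46729116-46729415, both on the minus strand, and capitals mark matches, on either strand, to the motifs searched:
Cbs: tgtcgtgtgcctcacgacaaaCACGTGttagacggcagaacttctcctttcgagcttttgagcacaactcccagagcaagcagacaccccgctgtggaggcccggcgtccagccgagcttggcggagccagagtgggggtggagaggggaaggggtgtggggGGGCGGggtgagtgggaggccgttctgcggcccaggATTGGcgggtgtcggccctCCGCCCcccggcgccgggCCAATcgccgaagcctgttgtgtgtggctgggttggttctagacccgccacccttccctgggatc
Gnmt: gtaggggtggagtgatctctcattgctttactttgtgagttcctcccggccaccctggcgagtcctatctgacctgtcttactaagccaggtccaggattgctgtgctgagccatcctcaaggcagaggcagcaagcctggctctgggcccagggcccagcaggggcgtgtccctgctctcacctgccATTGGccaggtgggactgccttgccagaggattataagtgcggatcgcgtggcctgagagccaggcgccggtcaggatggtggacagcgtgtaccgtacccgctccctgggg
The GC box, searched as GGGCGG, was found in 7 of the 9 enzyme windows in the table and in 35.7% of all 32851 windows. The windows of Dmgdh and Bhmt2, counted as 2 of the 7, overlap and hold the same 2 matches. The CCAAT box was found in 6 of 9 and in 37.4% of all windows. The E-box CACGTG was found in 1 of 9, that of Cbs, and in 7.15% of all windows. AGAACA, a steroid receptor motif, was found in 0 of 9 and in 19% of all windows. TGATGCA, part of the element bound by ATF4, was found in 0 of 9 and in 3.15% of all windows. The Cbs window held 2 GC boxes, 2 CCAAT boxes and 1 E-box, and the Gnmt window 1 CCAAT box, and no match overlapped another. Such matches describe these letters and show no binding.

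The libraries of a group did not place the enzymes in the same way. D-serine replicate 2 held the lowest value of its group for 7 enzymes, and D-serine replicate 3 held the highest for 5, among them Cbs, Gnmt, Cth and Mtr. Against the vehicle mean of each gene, the median over the 10 was nonetheless alike, at -0.44, -0.47 and -0.47 in D-serine replicates 1 to 3 and at 0.043, 0.048 and -0.059 in vehicle replicates 1 to 3, on the log2 scale. Within D-serine replicate 2 the deviations ran from -1.64 for Gnmt to -0.17 for Mat2b, and within vehicle replicate 2 from -0.13 for Cth to 0.30 for Mat2a.

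**Figure D3:**
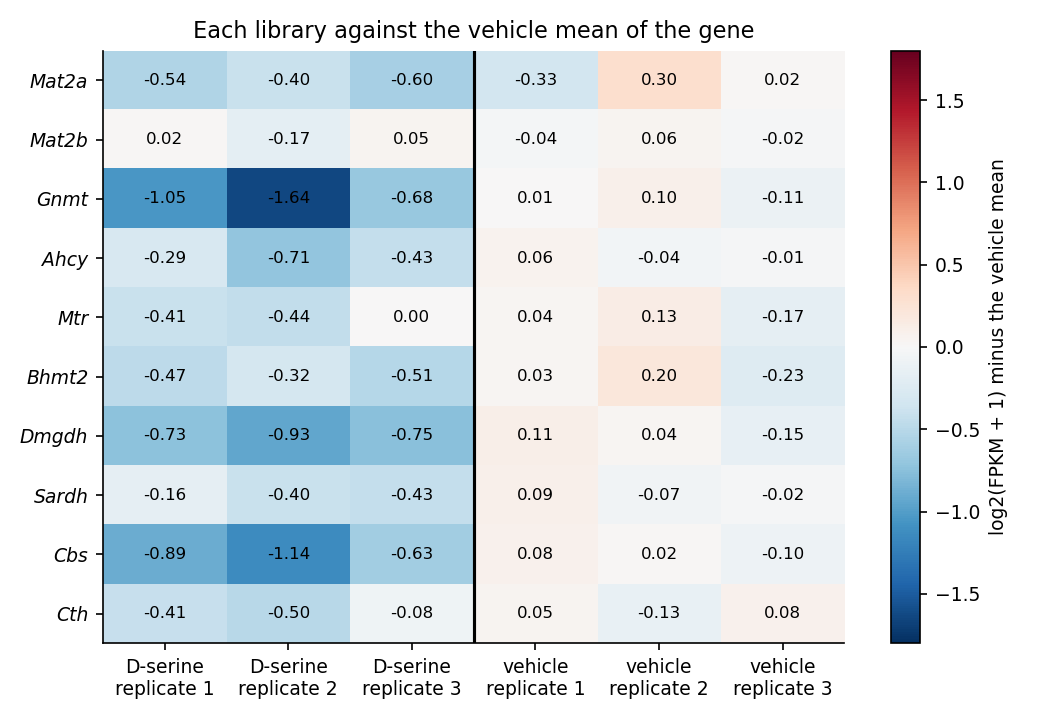
Log2(FPKM + 1) of each enzyme in each library minus the vehicle mean of that gene, D-serine libraries left of vehicle libraries. Gnmt in D-serine replicate 2 holds the lowest value, -1.64, and Mat2b stays within 0.17 of 0 in all 6 libraries.

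The order of the levels differed little between the groups. With D-serine it ran Mat2a, Cth, Bhmt2, Ahcy, Sardh, Mat2b, Cbs, Dmgdh, Gnmt and Mtr, and with vehicle Mat2a, Bhmt2, Cth, Ahcy, Cbs, Sardh, Dmgdh, Mat2b, Gnmt and Mtr, by mean FPKM. Cbs and Dmgdh thus stood below Mat2b with D-serine and above it with vehicle. Neighbours in this order had overlapping libraries for Cth and Bhmt2, Ahcy and Sardh, Mat2b and Cbs, and Cbs and Dmgdh with D-serine, and for Bhmt2 and Cth and Cbs and Sardh with vehicle.

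**Figure D4:**
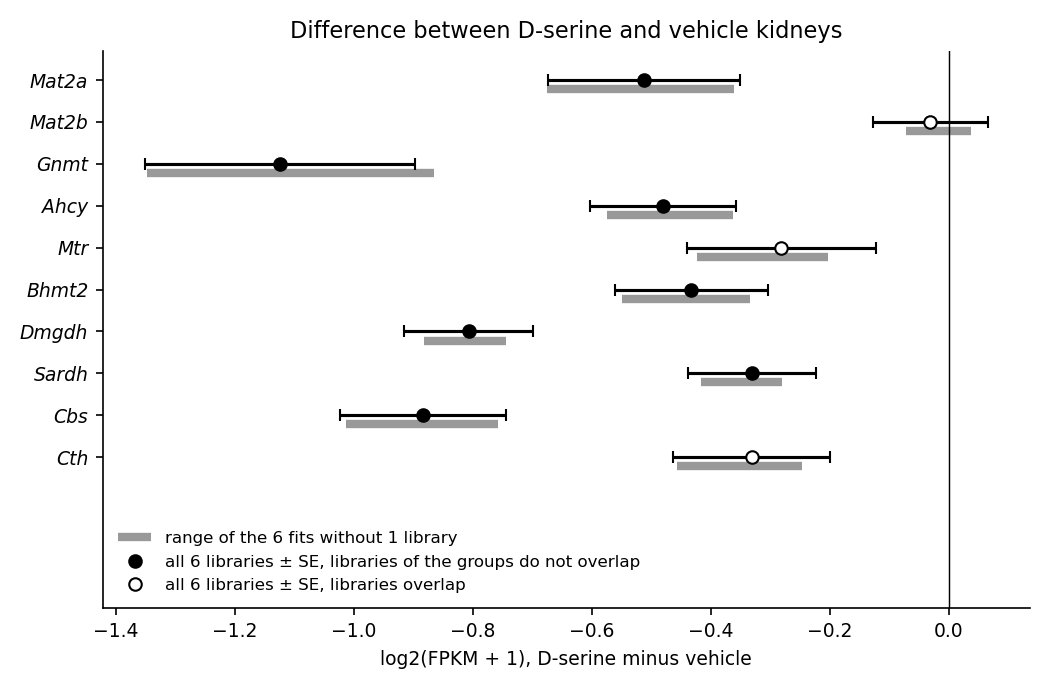
Log2 difference, D-serine minus vehicle, of each enzyme ± SE from limma on log2(FPKM + 1), with filled points where the libraries of the groups do not overlap and open points where they do. Grey bars span the 6 fits that leave out 1 library, and only the bar of Mat2b, from -0.073 to 0.038, crosses 0.

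The calls of Cbs, Gnmt and Dmgdh lay close to the threshold and turned with single choices. Without D-serine replicate 3 all 3 passed, with log2 differences of -1.01, -1.35 and -0.83 and limma adjusted p-values of 0.040, 0.040 and 0.044. In that fit the genes called over the whole table numbered 437 rather than 9, and 1.91% of all genes tested were called lower with D-serine. With any other library left out none of the 10 passed. Over the 6 fits without 1 library the adjusted p ran from 0.040 to 0.23 for Cbs, from 0.040 to 0.24 for Gnmt and from 0.044 to 0.23 for Dmgdh. The log2 differences stayed between -1.01 and -0.76 for Cbs, -1.35 and -0.86 for Gnmt and -0.88 and -0.74 for Dmgdh. When small RNA genes, many of which read 0 in whole groups, were left out of the table, the same 3 passed, at limma adjusted p-values of 0.039, 0.045 and 0.038. The whole table then gave 332 calls, and 1.58% of the genes tested were called lower with D-serine.

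The genes most like Cbs over the 6 libraries were found by the Euclidean distance between log2(FPKM + 1) values after subtraction of each gene's mean, among 10967 named genes. The nearest was Slc16a9, a carnitine and monocarboxylate transporter, at 45.5, 38.2 and 52.4 FPKM with D-serine and 87.4, 84.1 and 82.1 FPKM with vehicle, a distance of 0.0865 log2 units. Abat, which breaks down the transmitter GABA, came next at a distance of 0.105, followed by Lrrk2, Atrnl1 and Cyp2j11 at 0.15 to 0.17. Dmgdh ranked 32nd by this measure, Gnmt 193rd and Ahcy 508th, and Mat2b was the farthest of the 10. Around Gnmt the nearest were Cyp2j13 at 0.19 and F13b, Nudt12, Lypla1 and Hsph1 at 0.27 to 0.28, and Cbs ranked 29th. Cyp2j13, a cytochrome P450 that also stands in the list of androgen-responsive kidney genes, was at 62.1, 40.9 and 83.2 FPKM with D-serine and 118, 142 and 109 FPKM with vehicle.

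Of 59 other genes around these pathways, 57 were tested, 0 passed, and with D-serine 36 lay lower and 21 higher. Their median log2 difference was -0.11. For 19 of them the D-serine libraries were below all vehicle libraries and for 3 above, where over all genes tested these shares were 19.4% and 16.5%.

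Genes that break down choline, betaine, sarcosine and glycine lay lower in 10 of 11 cases, 7 of them without overlap, with a median log2 difference of -0.34. Over all genes tested, 51.1% lay lower and 19.4% did so without overlap. Gldc and Gcsh, counted among the 10, had small log2 differences of -0.0082 and -0.067. Chdh, which oxidizes choline on the way to betaine, was at 41.7, 30.0 and 46.5 FPKM with D-serine, against 67.2, 66.6 and 57.4 FPKM with vehicle (limma adjusted p = 0.077). Aldh7a1, which completes that step, had a log2 difference of -0.37 (adjusted p = 0.095). Etfdh, which takes the electrons of Dmgdh and Sardh into the respiratory chain, was at 65.7, 42.3 and 84.8 FPKM with D-serine and 103, 108 and 107 FPKM with vehicle (adjusted p = 0.10). Etfb, a subunit of the electron carrier between them, was the exception, at 1071, 1173 and 1096 FPKM with D-serine and 790, 910 and 1009 FPKM with vehicle. Genes that handle cysteine, hydrogen sulfide and glutathione were split 6 lower and 6 higher around a median of 0.0011. Csad, the step from cysteine sulfinate towards taurine, was at 107, 107 and 112 FPKM with D-serine, against 158, 171 and 162 FPKM with vehicle (limma adjusted p = 0.057). Suox, which oxidizes sulfite to sulfate, had a log2 difference of -0.56 (adjusted p = 0.080), and Sqrdl, the mitochondrial sulfide oxidase, one of -0.29 (adjusted p = 0.20). Gclc, the catalytic subunit that starts glutathione synthesis, was at 57.2, 64.9 and 74.0 FPKM with D-serine and 61.3, 73.5 and 60.3 FPKM with vehicle.

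Methionine cycle and salvage genes outside the 10 lay lower in 6 of 13 cases, with a median log2 difference of 0.0087. For this list and the 2 that follow, the share lying lower over all genes tested was 51.1%. Ahcyl2 and Ahcyl1 had the smallest p-values, followed by Mri1, an enzyme of methionine salvage, at 9.71, 14.4 and 10.8 FPKM with D-serine and 9.49, 7.89 and 8.59 FPKM with vehicle. Amd1, which decarboxylates S-adenosylmethionine for polyamine synthesis, has a near-identical copy, Amd2, and the split of reads between them is uncertain. Amd1 was at 17.8 FPKM in D-serine replicate 2 and at most 0.059 FPKM in the other libraries. Amd2, which is not in the list, was at 0.126 FPKM in D-serine replicate 2 and between 19.6 and 23.4 FPKM in the others. Amd1 is one of the 7 listed genes that lay higher, and its own place among them rests on D-serine replicate 2 alone. Genes of cobalamin uptake and handling lay lower in 8 of 12 cases, with a median of -0.23. Among the 8 are Lrp2 and Cubn, which are also counted below as markers of the proximal tubule. Mut, the mitochondrial enzyme that uses cobalamin, was at 43.8, 34.1 and 44.6 FPKM with D-serine, against 72.3, 67.9 and 64.5 FPKM with vehicle (limma adjusted p = 0.058). Lmbrd1, which lets cobalamin out of lysosomes, had a log2 difference of -0.33 (adjusted p = 0.11) and Lrp2, an endocytic receptor of the proximal tubule, one of -0.53 (adjusted p = 0.19). In a list of other methyltransferases, 6 of 9 lay lower, with a median of -0.22. Of these 9, 7 act on small molecules, of which 4 lay lower, and 2, Pcmt1 and Icmt, act on proteins, and both lay lower. Hnmt, which methylates histamine, was at 5.81, 4.96 and 7.64 FPKM with D-serine and 10.1, 8.69 and 8.37 FPKM with vehicle, Gamt, which makes creatine, had a log2 difference of 0.34, and Pcmt1, which repairs proteins, one of -0.29 (limma adjusted p from 0.10 to 0.16).

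**Figure D5:**
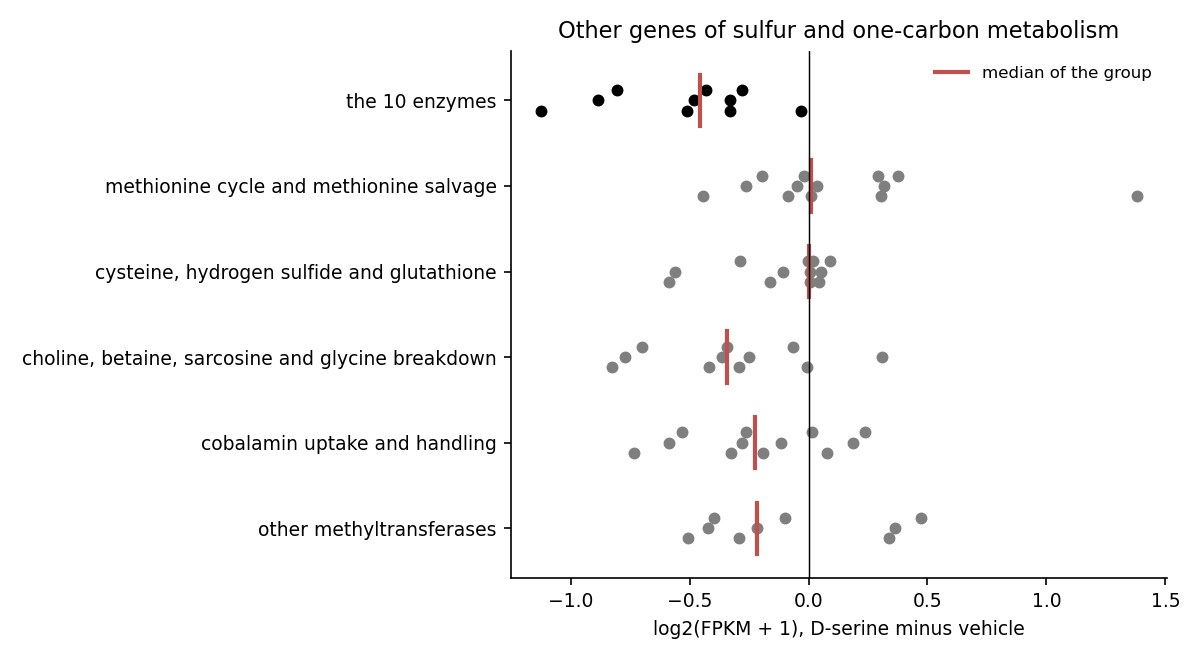
Log2 difference, D-serine minus vehicle, of the 10 enzymes (black) and of the tested genes in 5 lists of related pathways (grey), on log2(FPKM + 1), with a red bar at the median of each group. The median is -0.46 for the 10 enzymes, -0.34 for choline, betaine, sarcosine and glycine breakdown, and 0.0087 and 0.0011 for methionine salvage and cysteine metabolism.

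Among marker genes of cell types none passed the test, and the summed levels did not overlap between the groups for S3, principal cells, intercalated cells and cell division, while they overlapped for the other lists. Over all genes tested, 51.1% lay lower with D-serine, and 19.4% were lower and 16.5% higher without overlap. Markers of the last part of the proximal tubule, S3, summed to between 2074 and 2937 FPKM with D-serine and between 3835 and 4053 FPKM with vehicle, mostly Slc27a2. Of the S3 markers 7 of 9 lay lower, all but Slc5a10 and Slc5a11, with a median log2 difference of -0.73. Markers of the earlier segments S1 and S2 summed to 3489 to 4195 FPKM with D-serine and 3928 to 4614 FPKM with vehicle, mostly Slc34a1. Of these, 10 of 13 lay lower, with a median of -0.28. Their mean log2(FPKM + 1) was 6.30, 6.22 and 6.90 in D-serine replicates 1 to 3. In vehicle replicates 1 to 3 it was 7.05, 6.23 and 6.86, so it varied within both groups. Androgen-responsive genes lay lower in 7 of 7 tested cases of 8 listed, with a median of -1.03. Their sum, mostly Kap, was 94932 to 127555 FPKM with D-serine and 113277 to 138858 FPKM with vehicle. Principal cell markers of the collecting duct summed to 684 to 1028 FPKM with D-serine and 465 to 621 FPKM with vehicle, and intercalated cell markers summed to 346 to 459 FPKM with D-serine and 288 to 338 FPKM with vehicle, with 8 of 8 and 9 of 9 tested genes higher. Markers of cell division summed to 72.8 to 248 FPKM with D-serine and 17.9 to 21.5 FPKM with vehicle, with 8 of 8 genes higher and without overlap. Thick ascending limb markers, 4 of 7 lower, summed to 1156 to 1866 FPKM with D-serine and 1705 to 1942 FPKM with vehicle. Leukocyte markers were scarce, at 6.22 to 11.4 FPKM in sum with D-serine and 3.50 to 7.71 FPKM with vehicle, and Cd3e of T cells was listed at 0 in all 6 libraries. Of liver cell markers, which were listed because liver is rich in these enzymes, Ttr made up most of a sum of 76.9 to 158 FPKM with D-serine and 146 to 269 FPKM with vehicle, while Alb was at 6.30 FPKM with D-serine and 9.50 FPKM with vehicle and Cps1 was at most 0.0672 FPKM in a library. The part of these cell type differences in the enzyme values was not tested, and in whole tissue fewer cells of a type and less RNA per cell cannot be told apart.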

How the data were processed

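Kidney messenger RNA of 6 samples was, per the labels' protocols, extracted with TRIzol and made into stranded TruSeq libraries. TopHat2 2.0.13, Bowtie2 2.2.3, SAMtools 0.1.19 and Cufflinks 2.2.1 were used with the build mm10, per the submitters' processing notes. Each sample has 1 deposited table of FPKM values, a unit inferred from Cufflinks and the values. Annotation and strand setting: not given in the sources used here. An exact 0 may be a failed estimate and is given only as listed at 0.

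The test was limma 3.58.1 (R 4.3.3, with trend) on log2(FPKM + 1) for genes averaging 1 FPKM or more across all 6 libraries, two-sided, with Benjamini-Hochberg adjustment over all of them and a threshold of 0.05. The pseudocount understates the change of low genes. Ratios between enzymes were compared by exact permutation over samples in scipy 1.17.1. The fit was also tested on simulated data of 11737 genes, 200 of them changed between D-serine and vehicle. Of these, 0% were recovered when the fold was 1.5, 72.5% when it was 2 (3 false calls among the rest) and 97.5% when it was 4 (15 false calls). The simulation used independent normal noise, spreads shuffled between genes and a set number of changed genes. The rates depend on these settings and may not hold for the real libraries.

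Gene positions came from GENCODE M21 (mm10). Copies of at least 500 bases at 95% identity were found with BLAST 2.17.0, and promoters came from RefSeq on GRCm38.p6, which holds 9 of the 10 genes. Depth was estimated from steps between low values, with total fragments read from 325 genes of 1 transcript, and no interval was computed from it.

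The enzymes and the gene lists were chosen with earlier results of these data known. Named besides the 10 enzymes were their paralogs, the 3 genes with the smallest p in each of 5 pathway lists, the 5 genes nearest to Cbs and to Gnmt, and markers and neighbours. Particl, AW495222, Amd1, Amd2, Etfb, Gclc and Icmt were named after their values were seen. Alternatives were other pseudocounts, minimums and scalings, no trend, weighted libraries, small RNA genes left out, the replicate number as a block and each library left out.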

Additional observations from a re-analysis of the deposited data

How the results depend on the processing

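The count of genes called over the whole table, 9, moved to 269 with weighted libraries, 15 with median-of-ratios scaling, 132 with a minimum of 5 FPKM, 221 and 171 with pseudocounts of 0.01 and 0.1, and 332 without small RNA genes. It ran from 2 to 437 when 1 library was left out, with 437 without D-serine replicate 3 and 24 without D-serine replicate 1, and 4, 3 and 2 without vehicle replicates 1, 2 and 3. The count of enzymes called, 0, moved to 3 with weighted libraries and without small RNA genes, to 2 with a minimum of 5 FPKM and with pseudocounts of 0.1 or 0.01, and ran from 0 to 3 without 1 library. The 2 were Cbs and Dmgdh, and Gnmt was the third. Of all genes tested, 1.58% were called lower without small RNA genes and 1.91% without D-serine replicate 3. That share was not computed for the other alternatives. The replicate block gave 2 genes and 0 enzymes. Deviations of same-numbered libraries correlated at -0.070, 0.0031 and 0.067 over genes, and those of other pairs at -0.082 to 0.083. These values show no pairing by number, but they cannot exclude it.

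The median log2 difference of the enzymes, -0.46, was -0.41 under quantile normalization and ran from -0.49 to -0.38 without 1 library, with -0.38 without vehicle replicate 2. The enzymes with D-serine libraries below all vehicle libraries numbered 7 to 9 in the 10 alternatives counted. The share over all genes tested, 19.4% with all 6 libraries, was not computed for these alternatives, so the higher counts have no background beside them. Leaving out a library can only keep or raise the count of enzymes, and another minimum does not change the values. Only the 2 scalings could have lowered it, and both median-of-ratios scaling and quantile normalization gave 7. Mat2b turned to 0.0042 with weighted libraries, 0.039 under quantile normalization and 0.038 without D-serine replicate 2, and ran from -0.073 to 0.038 without 1 library. The log2 ratio of Bhmt2 to Mtr, -0.057, turned to 0.17 without D-serine replicate 3 and ran from -0.22 to 0.17, and the cause of these turns was not tested. The other 9 enzymes and 3 ratios kept their direction in each alternative run. A minimum of 5 FPKM leaves no value for Mtr. The depth limits Gnmt and Mtr most.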
